A study of Mus musculus with 16 samples.

Results

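Fatty acid oxidation and the genes driven by the peroxisome proliferator-activated receptors (PPARs) were followed through 38 genes listed by name, in adenoma cells, myofibroblasts and epithelial organoids of the mouse small intestine. Of the 38 genes, 36 were read on the arrays, out of 22180 genes in all. Each gene was read from the brightest of the probe sets that name it alone. Acsl1 has no such probe set named here and Acsl3 lies only on a probe set shared with Utp14b, so neither was analysed here. All 36 also passed the filter on dim genes, which needs a group mean above 2.67 on the log2 scale and kept 18095 genes, although a gene could pass through its highest group alone.

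The adenoma cells came from 4 Apc+/1638N mice (6 arrays, 2 of the mice on 2 arrays each, which were averaged). This genotype carries a mutation in 1 copy of Apc, the restrainer of Wnt signalling. The adenoma titles each name 1 mouse, but the source names give n = 3 for each adenoma sample without explanation. The other samples were wildtype: myofibroblasts co-cultured with organoids (n = 3 mice), the myofibroblasts of the same 3 mice in monoculture, crypt-derived epithelial organoids co-cultured with myofibroblasts (n = 2 mice), and the organoids of the same 2 mice in monoculture. All were labelled as male C57Bl/6 mice of 8 to 10 weeks. Co-culture lasted 24 h across an insert with 0.4 µm pores, so cells of both kinds shared medium without touching. The labels' protocols do not say how the adenoma cells were grown, and adenoma differs from the organoids in genotype, animals and kind of tissue at once, which cannot be told apart.

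PPARs are nuclear receptors that bind DNA together with a retinoid X receptor and respond to fatty acids and their derivatives. PPARα, encoded by Ppara, is known for driving fatty acid oxidation in liver, heart and the absorptive cells of the small intestine. In oxidation, a fatty acid is joined to coenzyme A, passed into the mitochondrion as a carnitine ester and shortened in repeated turns of a spiral of enzymes, while peroxisomes run a spiral of their own for very long and branched chains.

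PPARs bind a direct repeat, in which AGGTCA is followed by any 1 base and by AGGTCA again. This motif was searched on both strands of the promoters that RefSeq gives on GRCm38.p6, from 250 bases before to 50 after each gene's start. A promoter was available for 32 of the 38 genes. A match with at most 2 mismatches outside the free base was found in 3 of the 32 (9.38%), against 1190 of 27025 genes (4.4%). No member held a match with at most 1 mismatch, against 174 genes (0.644%), and with at most 3 mismatches the share was 25% of members against 27.3% of genes. The 3 promoters are printed 5′ to 3′ along the gene because they hold the closest matches among the 32 members with a promoter. The matched 13 bases are in capitals. Relative to the gene's start they span -77 to -65 in Etfa and -225 to -213 in Plin2, both on the strand opposite to the gene, and 7 to 19 in Slc25a20, on the gene's own strand. A match of these letters is a description and not a shown binding site.
Etfa, chr9:55512194-55512493, minus strand: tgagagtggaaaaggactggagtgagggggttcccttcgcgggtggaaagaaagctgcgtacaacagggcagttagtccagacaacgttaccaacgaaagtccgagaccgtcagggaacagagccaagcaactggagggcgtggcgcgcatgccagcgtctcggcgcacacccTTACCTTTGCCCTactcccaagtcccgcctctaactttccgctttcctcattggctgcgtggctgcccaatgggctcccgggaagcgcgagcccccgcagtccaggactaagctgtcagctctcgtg
Plin2, chr4:86670010-86670309, minus strand: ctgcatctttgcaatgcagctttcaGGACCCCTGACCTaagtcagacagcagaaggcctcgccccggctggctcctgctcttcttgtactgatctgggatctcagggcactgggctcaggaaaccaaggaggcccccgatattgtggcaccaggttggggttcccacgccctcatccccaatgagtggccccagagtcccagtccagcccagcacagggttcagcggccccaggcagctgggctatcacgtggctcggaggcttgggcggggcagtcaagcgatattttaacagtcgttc
Slc25a20, chr9:108661886-108662185, plus strand: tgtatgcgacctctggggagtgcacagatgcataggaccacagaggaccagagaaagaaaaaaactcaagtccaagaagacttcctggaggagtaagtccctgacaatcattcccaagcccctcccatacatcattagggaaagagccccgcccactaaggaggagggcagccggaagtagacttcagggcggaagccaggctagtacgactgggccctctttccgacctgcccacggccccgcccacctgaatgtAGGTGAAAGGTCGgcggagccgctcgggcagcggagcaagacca

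The groups were checked against lists of marker genes before the members were read. The mean log2 level of 6 epithelial markers was 11.22 in adenoma, 3.71 in co-cultured and 3.68 in monocultured myofibroblasts, 11.62 in co-cultured and 11.26 in monocultured epithelium. Myofibroblast cultures carried the 8 fibroblast markers (11.86 in co-culture, 11.87 in monoculture) and also the 10 macrophage and other immune markers (9.24 and 9.16), which averaged 4.17 in adenoma, 4.08 in co-cultured and 4.10 in monocultured epithelium. Adenoma cells averaged 5.23 over 12 markers of absorptive enterocytes, against 10.85 in co-cultured and 11.28 in monocultured epithelium, so the adenoma samples were epithelial with low enterocyte markers. Both cultures of P28 and of Pl_III (4 samples) had Xist between 7.57 and 8.29 and Eif2s3y between 2.53 and 3.20, whereas the other 10 samples had Xist at most 2.81 and Eif2s3y at least 7.37. Those 4 samples go against their male label, and the counts of called members are given also without both animals.

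The first comparison asked how the programme in adenoma cells differed from that in monocultured epithelium. Of the 36 genes, 31 were lower in adenoma and 0 higher at an adjusted p under 0.05 in limma, the rule for a call used throughout, against 18.5% of all 18095 genes called lower and 22.5% called higher (41% in either direction). The median log2 difference was -1.46 over the members and -0.03 over all genes tested. All 4 adenoma samples lay below both epithelial monocultures for 32 members and above them for 1, against 27.7% and 28.7% of all genes. Without P28 and Pl_III, 29 members were called lower and Acsl4 higher. In bulk samples of this kind, fewer cells of a type and less RNA per cell cannot be told apart.

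**Figure D1:**
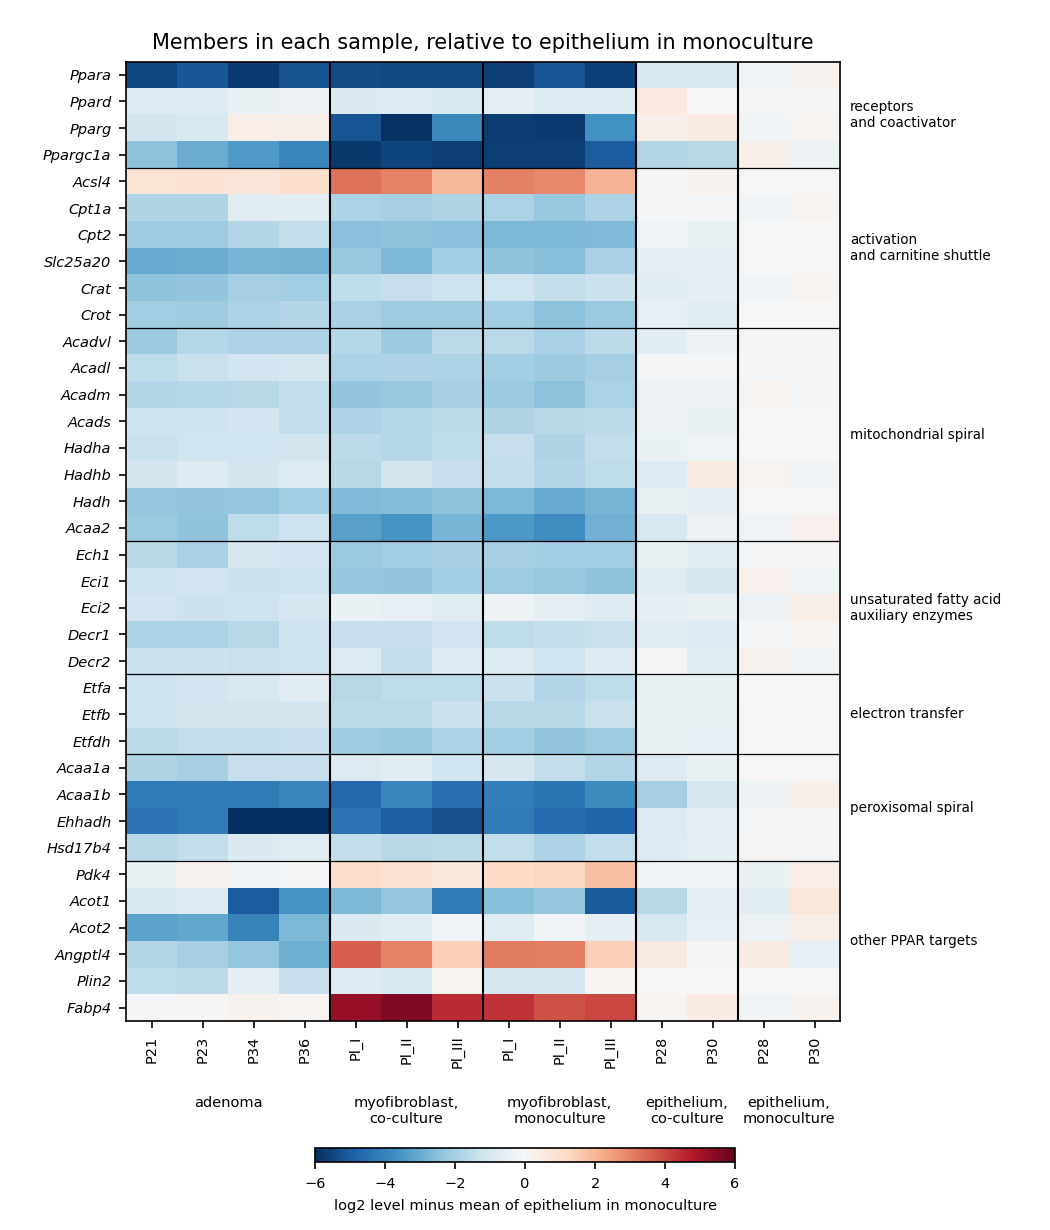
Log2 level of each of the 36 members (rows, by role) in each of the 14 samples (columns, by group), as the difference from the mean of the 2 epithelial monocultures; blue is lower and red is higher. Adenoma columns are blue in most rows, Ppara and Ehhadh most of all, and the myofibroblast columns are red for Acsl4, Pdk4, Angptl4 and Fabp4.

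Among the receptors, Ppara had log2 levels of 3.47, 3.78, 3.20 and 3.69 in the 4 adenoma animals P21, P23, P34 and P36, against 8.73 and 9.14 in the monocultures of P28 and P30. The groups were far apart, and the adenoma levels lay near the array medians (3.48 to 3.58), with no detection calls to say whether the gene was above background. The difference was -5.40 ± 0.19 (SE; adjusted p = 1.25e-09), and no fold is given for a level this close to the median. Ppargc1a, the coactivator that raises mitochondrial gene expression with PPARα, had 5.82, 5.31, 4.86 and 4.38 in adenoma, against 8.61 and 7.95 in monocultured epithelium. It fell by 3.19 on the log2 scale (SE 0.34, adjusted p = 1.22e-05), and no adenoma sample reached an epithelial one. Ppard, the widely expressed receptor, fell by 0.58 (SE 0.18, adjusted p = 0.024). That call was lost when any of P28, P30, P21 or P23 was left out of its group (adjusted p = 0.16, 0.0607, 0.0567 and 0.0554). Pparg, the receptor best known from fat cells, averaged 8.82 ± 0.80 in adenoma (SD, n = 4) and 9.12 ± 0.22 in monocultured epithelium (SD, n = 2), and the groups overlapped (difference -0.30 ± 0.68, adjusted p = 0.776).

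**Figure D2:**
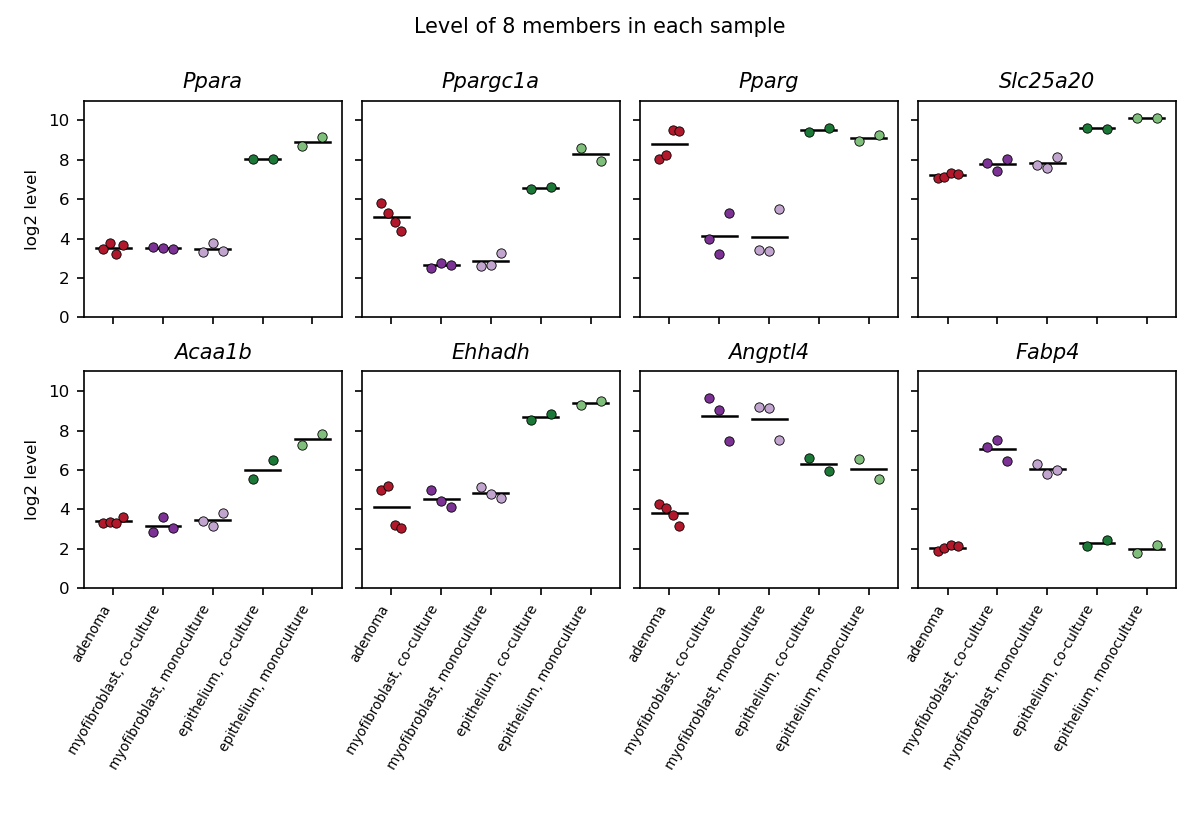
Log2 level of 8 members in each sample (points), with the group mean as a bar; groups run from adenoma to epithelium in monoculture. Ppara sits near 3.5 in adenoma and in both myofibroblast groups and at 8 to 9 in both epithelial groups, Pparg is high in adenoma and epithelium alike, and Fabp4 is high only in the 6 myofibroblast samples among those plotted.

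The carnitine shuttle was lower at every enzyme read. Slc25a20, the carrier that exchanges acylcarnitine for carnitine across the inner mitochondrial membrane and 1 of the 3 genes printed above, had 7.09, 7.14, 7.31 and 7.30 in adenoma, against 10.13 and 10.12 in monocultured epithelium. Its samples were tight within each group, and it fell by 2.92 (SE 0.19, adjusted p = 2.56e-07). Crat and Crot, the carnitine acyltransferases for short and for medium chains, fell by 2.21 (SE 0.16) and 1.97 (SE 0.15). Cpt1a, which makes the first carnitine ester and is taken as the gate of the pathway, had 8.82, 8.82, 9.98 and 9.93 in adenoma, against 10.46 and 10.81. The 4 adenoma animals split into 2 levels, both below epithelium, and the difference of -1.25 ± 0.32 (adjusted p = 0.00738) was no longer called without P30 (adjusted p = 0.0758) or without P28 and Pl_III (adjusted p = 0.0605). Cpt2, its partner on the inner membrane, fell by 1.86 (SE 0.18, adjusted p = 5.83e-06). Acsl4, an acyl-CoA synthetase that prefers arachidonic acid, had the opposite sign: 7.80, 7.84, 7.78 and 8.05 in adenoma, all above 6.94 and 7.03 in monocultured epithelium. Its difference of 0.89 ± 0.34 had an adjusted p of 0.0532, and it was called once the animal entered as a replicate block (SE 0.12, adjusted p = 0.000347). Adenoma and epithelium share no animal, so the block pairs nothing here: it left the difference as it was and changed only the SE, which comes from the spread over all groups.

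All 8 enzymes of the mitochondrial spiral were called lower, with log2 differences between -2.27 and -0.96 and a median of -1.46. Hadh, the dehydrogenase of the third step for shorter chains, changed most: 9.99, 9.92, 9.99 and 10.21 in adenoma against 12.27 and 12.32 in monocultured epithelium (-2.27 ± 0.13, 4.81-fold lower, adjusted p = 8.49e-08). The acyl-CoA dehydrogenases of the first step fell by 1.91 for very long chains (Acadvl), 1.27 for long chains (Acadl), 1.64 for medium chains (Acadm) and 1.28 for short chains (Acads), with SE of 0.12 to 0.19. Hadha, the α subunit of the trifunctional protein for long chains, fell by 1.21 (SE 0.14), and Acaa2, the last-step thiolase, fell by 1.85 (SE 0.36). Hadhb, the β subunit, is the gene next to Hadha on chromosome 5. It was read at 2.89 in adenoma and 3.85 in monocultured epithelium, levels under and just above the array medians (3.48 to 3.58). Its call (-0.96 ± 0.29, adjusted p = 0.0188) rests on such values and was lost without P28 (adjusted p = 0.156).

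The auxiliary enzymes that let unsaturated chains pass through the spiral were all called lower as well. Decr1, the mitochondrial dienoyl-CoA reductase, had 5.16, 5.18, 5.38 and 5.82 in adenoma against 6.95 and 7.17 in monocultured epithelium, with no overlap (-1.68 ± 0.18, adjusted p = 1.13e-05). Ech1, Eci1, Eci2 and the peroxisomal reductase Decr2 fell by 1.44, 1.22, 1.19 and 1.29. The electron transfer flavoprotein, which takes electrons from the acyl-CoA dehydrogenases, and its reductase moved the same way: Etfa fell by 1.00 (SE 0.17), Etfb by 1.14 (SE 0.13) and Etfdh by 1.49 (SE 0.13, adjusted p = 3.43e-06).

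The peroxisomal spiral held some of the widest gaps. Ehhadh, the bifunctional enzyme of straight chains and a classical PPARα target, had 4.97, 5.16, 3.22 and 3.03 in adenoma, against 9.30 and 9.48 in monocultured epithelium. It fell by 5.29 (SE 0.54, adjusted p = 8.58e-06), and the adenoma animals again split in pairs. Acaa1b, a peroxisomal thiolase, had 3.32, 3.35, 3.29 and 3.60 in adenoma, against 7.25 and 7.84 (-4.15 ± 0.29, adjusted p = 4.83e-07). Its near-identical neighbour on chromosome 9, Acaa1a, fell by 1.64 (SE 0.24). Probe sets of such close copies may share signal, so their separate values are uncertain. Hsd17b4, the bifunctional enzyme of branched chains, fell by 1.19 (SE 0.24, adjusted p = 0.00151).

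Of the 6 other PPAR targets, 3 were called lower. Acot2, a mitochondrial acyl-CoA thioesterase, had 6.83, 6.90, 6.02 and 7.31 in adenoma, against 9.66 and 10.37 in monocultured epithelium (-3.25 ± 0.34, 9.54-fold lower, adjusted p = 1.04e-05). Angptl4, a secreted inhibitor of lipoprotein lipase, fell by 2.26 (SE 0.62, adjusted p = 0.0106), a call lost without P28 (adjusted p = 0.128). Plin2, the coat protein of lipid droplets, fell by 1.25 (SE 0.39, adjusted p = 0.0216). That call was lost without P28 or P30 (adjusted p = 0.107 and 0.0881). Acot1, the cytosolic neighbour and close copy of Acot2 on chromosome 12, ranged from 2.86 to 7.03 in adenoma, below 7.17 and 8.52 in monocultured epithelium, but with this spread it was not called (-2.59 ± 1.15, adjusted p = 0.094). Without P23 it was called (-3.17, adjusted p = 0.0445). As with Acaa1a and Acaa1b, the probe sets of Acot1 and Acot2 may share signal, so their separate values are uncertain. Pdk4, the kinase that shuts off pyruvate dehydrogenase, and Fabp4, the fatty acid carrier of fat cells and macrophages, differed by -0.11 and 0.08 and were dim in both groups.

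**Figure D3:**
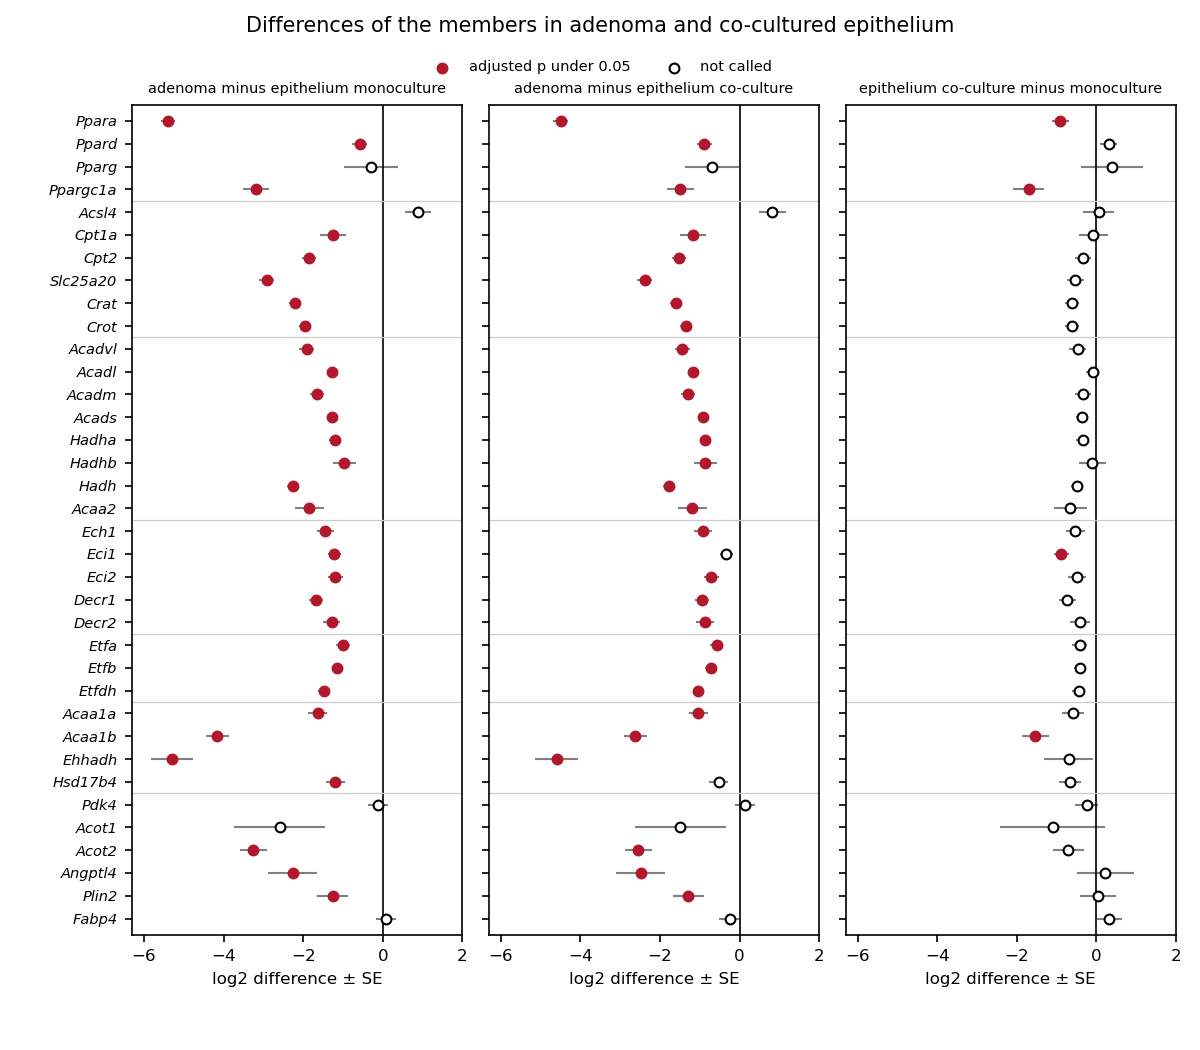
Log2 difference ± SE of each member (rows, by role) for adenoma minus epithelium in monoculture, adenoma minus epithelium in co-culture, and epithelium in co-culture minus monoculture; filled points have an adjusted p under 0.05. The left panel has 31 filled points, the middle 29 and the right 4, and all of them lie below 0.

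Genes around the members were read from lists of related functions. Among further PPAR targets, 8 of 17 tested were lower in adenoma than in monocultured epithelium and 1 higher (Plin5, at 2.77 against 2.19, both dim). Fabp1, the fatty acid carrier of enterocyte and hepatocyte, had the smallest p (2.34 against 11.23), followed by Creb3l3, a transcription factor of fasting metabolism (3.56 against 10.21), and Cd36, a fatty acid translocase (2.55 against 6.67). Vnn1, also on this list, lay the other way without being called. It had 7.76, 7.91, 11.31 and 11.22 in P21, P23, P34 and P36, against 7.18 and 7.31 in the epithelial monocultures. Of the receptor partners and coregulators, 8 of 14 were lower and 2 higher. Rxra, the retinoid X receptor that pairs with PPARα, fell by 2.24 (SE 0.17), and Ncoa1, a coactivator, fell by 1.79 (SE 0.20), whereas Nrf1, a regulator of mitochondrial genes, was 0.75 higher (SE 0.13, adjusted p = 0.000495). Uptake, activation and thioesterase genes were lower in 7 of 11, led by the transporters Slc27a4 (-3.39) and Slc27a2 (-6.73) and the peroxisomal thioesterase Acot4 (-4.01). In adenoma Slc27a2 read 2.31 to 2.52 and Acot4 2.54 to 3.08, under the array medians (3.48 to 3.58). The sizes of these gaps are therefore uncertain. Further peroxisomal lipid genes were lower in 10 of 13, with Amacr (-2.47), Scp2 (-1.95) and Cat (-2.12) at the smallest p.

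Among neighbouring routes, ketone body genes were lower in 2 of 4 tested (Bdh1 by -1.49 and Acat1 by -0.88). Citrate cycle and respiratory chain genes were lower in 13 of 16 with a median of -0.59, a shift smaller in size than the members' median of -1.46. Fatty acid synthesis genes were lower in 4 of 13 and higher in 2. Mlycd is counted among these lower genes, although its enzyme removes malonyl-CoA and does not build fatty acids. It fell by 1.25 (SE 0.17) and Srebf1, a regulator of lipid synthesis, fell by 0.95 (SE 0.17). The elongase Elovl5 was higher by 1.31 (SE 0.28, adjusted p = 0.00227). Beside these shifts, all 12 enterocyte markers were lower in adenoma, with a median difference of -6.89 and Sis at 2.61 against 12.47, and 5 of the 6 cycling-cell markers were higher, with a median of 3.69. The members fell as the enterocyte markers did, while the cycling-cell markers rose, and the part of those cell types in the members' difference was not tested.

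**Figure D4:**
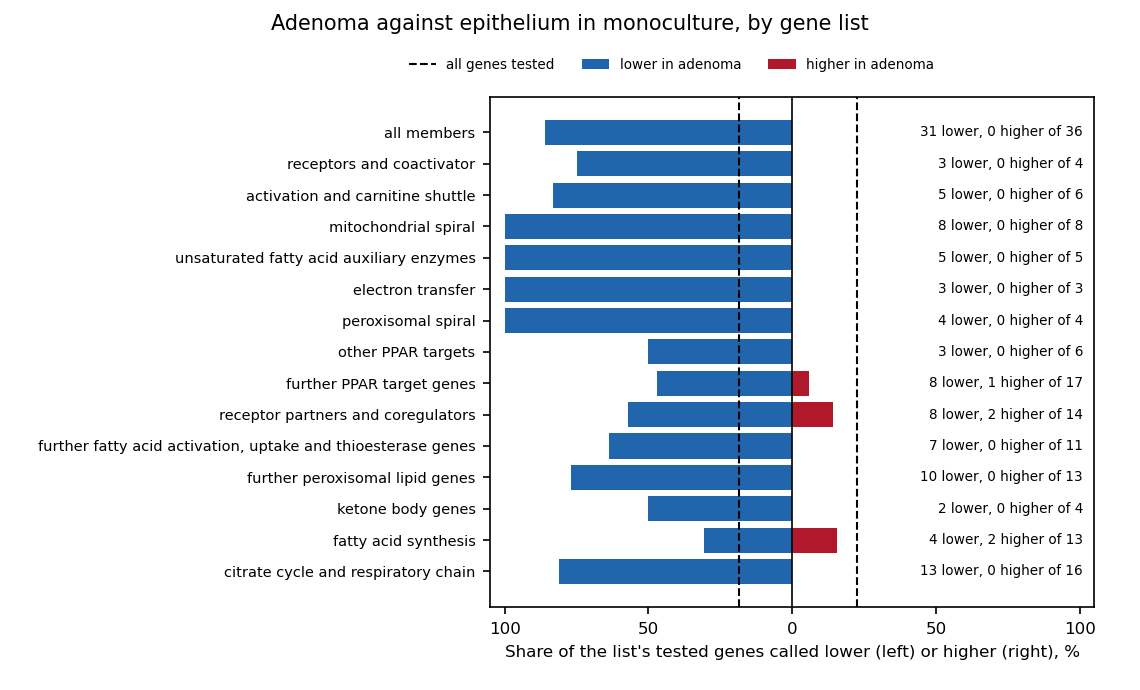
Share of the tested genes of each list called lower (blue, left) or higher (red, right) in adenoma than in epithelium in monoculture, in percent, with the share of all genes tested as dashed lines. Each of the 4 oxidation lists in the middle of the members (both spirals, auxiliary enzymes, electron transfer) is called lower in full. The fatty acid synthesis list, in which Mlycd is counted, has 4 genes lower and 2 higher of 13.

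Set against co-cultured epithelium, which came from the same 2 mice as the monocultures, the same adenoma samples were lower in 29 of the 36 members and higher in 0. Over all genes, 14.3% were called lower and 19% higher (33.3% in all). The members' median was -1.11, against 0.01 over all genes. All adenoma samples lay below both co-cultures for 30 members and above them for 1, against 23.6% and 27.5% of all genes. Ppara (-4.50 ± 0.19), Ehhadh (-4.60 ± 0.54), Acaa1b (-2.62 ± 0.29), Acot2 (-2.55 ± 0.34) and Angptl4 (-2.49 ± 0.62, adjusted p = 0.00795, lost without P28 at 0.0901) had the widest gaps of the called members. Eci1 and Hsd17b4 were not called here (-0.34 ± 0.16, adjusted p = 0.139, and -0.53 ± 0.24, adjusted p = 0.119). Acsl4 was 0.82 ± 0.34 higher (adjusted p = 0.0828), and the block, again without a pair, gave an adjusted p of 0.000798. Without P28 and Pl_III, 24 members were called lower, and leaving out single samples gave 21 to 29.

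The next comparison asked what the presence of myofibroblasts changed in epithelium. Of 36 members in co-cultured against monocultured epithelium, 4 were lower and 0 higher, against 1.32% and 2.71% of all genes (4.03% in all): Ppara, Ppargc1a, Eci1 and Acaa1b. The median difference was -0.46 over the members and -0.02 over all genes. In P28, 29 members were lower in co-culture than in monoculture (median -0.42), and in P30 likewise 29 (median -0.50), with 27 lower in both animals and 5 higher in both. The share of all genes that agreed across both animals was not counted. The co-cultures lay below both monocultures for 24 members and above them for 2, against 26.8% and 25.5% of all genes.

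Ppargc1a had 6.54 and 6.62 in the co-cultures of P28 and P30, against 8.61 and 7.95 in their monocultures (-1.70 ± 0.39, 3.25-fold lower, adjusted p = 0.0341). Acaa1b had 5.53 and 6.49 in co-culture, against 7.25 and 7.84 (-1.53 ± 0.34, adjusted p = 0.0289). Ppara had 8.04 and 8.02 in co-culture, against 8.73 and 9.14 (-0.90 ± 0.21, adjusted p = 0.039). None of the 3 overlapped between cultures. Eci1, which shifts double bonds for the mitochondrial spiral, had 8.42 and 8.13, against 9.44 and 8.88 (-0.88 ± 0.19, adjusted p = 0.0235). With 2 animals a group these calls were fragile: leaving out 1 culture left at most 1 member called, and without P28 and Pl_III none was called. The Ppara call was also lost with cyclic loess between arrays (adjusted p = 0.0595) and with a trended robust prior (adjusted p = 0.0552). The replicate block, which pairs the cultures of an animal, called 6, adding Crot (-0.61, adjusted p = 0.0488, against 0.0714 without the block) and Slc25a20 (-0.53, adjusted p = 0.0465, against 0.241).

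The remaining members of the shuttle, the mitochondrial spiral and the electron carriers differed by -0.66 to 0.06 and were not called. Cpt1a (10.56 and 10.56 in co-culture, 10.46 and 10.81 in monoculture) and Acadl (10.63 and 10.71, against 10.71 and 10.81) were nearly level. Plin2 stood at 9.61 in both co-cultures and at 9.60 and 9.54 in the monocultures. Pparg was 9.43 and 9.59 in co-culture, above 8.96 and 9.28 in monoculture, with a difference of 0.39 ± 0.78 that was not called. From the related lists, the transporter Slc27a2 (-1.62 ± 0.32), Scp2 (-0.94 ± 0.20), Amacr (-0.81 ± 0.17) and Tmem135 (-0.76 ± 0.18) were lower, and no gene of the other 4 lists was called. Beside this, 1 of 12 enterocyte markers was lower (Mep1a, -1.25 ± 0.25), and 2 of 6 cycling-cell markers were higher (Mcm2 by 2.00 and Mcm3 by 2.40). The mean level of those 6 markers was 8.01 and 8.38 in co-culture, against 6.46 and 6.98 in monoculture, and their part in the members' shift was not tested.

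In myofibroblasts, co-culture changed no member past the threshold. The members' median was 0.04 and that of all genes 0.00, and 0.00553% of all genes were called in limma, all of them lower, with 2 members at an unadjusted p under 0.05. No member was called without P28 and Pl_III either. The cultures did not overlap for 4 members higher and 2 lower in co-culture, against 3.54% and 3.44% of all genes. Fabp4 had 7.17, 7.52 and 6.43 in co-cultures of Pl_I, Pl_II and Pl_III, against 6.32, 5.77 and 5.98 in their monocultures. It was higher in co-culture in every animal (1.02 ± 0.25, unadjusted p = 0.00157, adjusted p = 1). Fabp4 is known from macrophages as well as fat cells, and the 10 macrophage and immune markers averaged 9.28, 8.93 and 9.53 in co-culture, against 9.04, 9.0 and 9.45 in monoculture. Their part was not tested. The 6 adipocyte markers read averaged 2.84 in co-cultured and 2.81 in monocultured myofibroblasts, and among them Adipoq and Lep were too dim to test in any group. Pdk4 differed by -0.54 ± 0.24 (unadjusted p = 0.0463, adjusted p = 1). Of the 3 animals, 5 members were lower in co-culture in all and 11 higher in all. How often all genes agreed in this way was not counted, so no trait of the members is read from these counts.

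The difference between both responses to co-culture was tested directly, as epithelium minus myofibroblasts. No member passed, against 0.834% of all genes called higher and 0.271% called lower (1.11% in all), and 11 members had an unadjusted p under 0.05. Without P28 and Pl_III again 0 were called. The smallest adjusted p was 0.100 for Hadh, at -0.74 ± 0.19, with Eci1 (-0.90 ± 0.24, adjusted p = 0.111) and Crot (-0.80 ± 0.22, adjusted p = 0.117) next. With the replicate block Eci1 was called (adjusted p = 0.0417). A different response of the members in the 2 cell types was not shown by this test.

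Myofibroblasts and epithelium in monoculture differed widely. Monocultured myofibroblasts were lower than monocultured epithelium in 30 of the 36 members and higher in 4, against 24.2% and 26.5% of all genes (50.7% in all), with a median of -1.70 against -0.02 over all genes. The groups did not overlap for 29 members lower and 4 higher, against 33.2% of all genes in each direction. Ppara (3.30, 3.77 and 3.35 in Pl_I, Pl_II and Pl_III, against 8.73 and 9.14), Ppargc1a (2.63, 2.65 and 3.28, against 8.61 and 7.95) and Pparg (3.43, 3.38 and 5.48, against 8.96 and 9.28) were each called lower, and the groups did not overlap for any of the 3. The 4 genes that were higher were Fabp4 (4.06 ± 0.28, adjusted p = 1.3e-07), Acsl4 (2.64 ± 0.35), Angptl4 (2.55 ± 0.65) and Pdk4 (1.43 ± 0.27). In the monocultures of P28 and P30, Fabp4 read 1.76 and 2.17, under the array medians (3.48 to 3.58). Pdk4 read 3.13 and 3.96 there, near those medians. The sizes of the Fabp4 and Pdk4 gaps are therefore uncertain. The Angptl4 call was lost without P30 (2.04, adjusted p = 0.0684). Of the related lists, Lpl, the lipoprotein lipase that Angptl4 inhibits (3.85 ± 0.75, adjusted p = 0.000983), and Cd36 (2.28 ± 0.39) were higher as well, among 3 higher and 9 lower of 17 further PPAR targets. Lpl read 3.07 and 2.78 in the monocultures of P28 and P30, also under the array medians, so the size of its gap is uncertain. All 10 immune markers were higher in the myofibroblast monocultures, and their part in the higher genes was not tested. Without P28 and Pl_III, 28 members were lower and 4 higher.

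Within myofibroblasts, several members differed more between animals than between cultures. Both cultures of Pl_III had Pparg at 5.28 and 5.48, whereas the 4 cultures of the other animals lay between 3.21 and 3.96. Angptl4 was 7.48 and 7.50 in Pl_III and 9.04 to 9.64 in the others, and Plin2 was 9.73 and 9.70 against 8.56 to 8.73. Acsl4 (8.91 and 9.0, against 9.88 to 10.24) and Acot1 (3.66 and 2.82, against 5.16 to 5.54) were lower in Pl_III. Its cycling-cell markers averaged 7.44 in co-culture and 7.20 in monoculture, against 8.48 to 8.78 in the other animals. Its fatty acid synthesis genes averaged 7.95 and 8.13, against 9.03 to 9.16, and its immune markers 9.53 and 9.45, against 8.93 to 9.28. The 8 fibroblast markers averaged 11.58 in co-culture and 11.67 in monoculture of Pl_III, against 11.92 to 12.02 in the other animals. Pdgfra, 1 of these markers, split far more widely than their mean, at 7.63 and 7.70 in Pl_III, against 11.06 to 11.44. C1qa, a macrophage marker, was 9.34 and 9.40, against 6.79 to 8.06. The part of other cells in these splits was not tested, and this animal is 1 of the 2 that go against the sex label. These splits rest on 1 animal and were not tested.

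Over the 5 groups, monocultured epithelium had the highest mean for 29 of the 36 members, co-cultured epithelium for 3 (Ppard, Pparg and Plin2), co-cultured myofibroblasts for 3 (Acsl4, Angptl4 and Fabp4) and monocultured myofibroblasts for Pdk4. Adenoma was highest for 0 members, against 24.3% of all genes, while monocultured epithelium was highest for 27.9% of all genes. The lowest mean was in monocultured myofibroblasts for 14, in adenoma for 11 and in co-cultured myofibroblasts for 8 of the 36 members. Of all genes, 20.2%, 19% and 20.4% were lowest in these groups, so the count for co-cultured myofibroblasts was near that share. For Ppara the order was epithelium in monoculture, epithelium in co-culture, and then the 3 other groups at 3.47 to 3.53, which did not differ beyond their spread.

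The 4 adenoma animals were not alike. P21 and P23 carry T2 in their titles, a term the labels do not explain, and P34 and P36 do not. Between these pairs, 2 members were higher and 4 lower in the T2 animals, against 3.65% and 3.49% of all genes (7.14% in all). The pairs did not overlap for 20 members lower and 4 higher in the T2 animals, against 26% and 25.2% of all genes. Ehhadh had 4.97 and 5.16 in the T2 animals, against 3.22 and 3.03 in the others (1.94 ± 0.26, adjusted p = 0.000745). The levels in P34 and P36 lay below the array medians (3.48 to 3.58), so the size of this gap is uncertain. Acot1 had 6.87 and 7.03, against 2.86 and 4.29 (3.37 ± 0.91, adjusted p = 0.0489), a call lost when any of the 4 animals was left out. Lower in the T2 animals were Cpt1a (8.82 and 8.82, against 9.98 and 9.93; -1.14 ± 0.16, adjusted p = 0.00121), Ech1 (-0.71 ± 0.14), Hsd17b4 (-0.76 ± 0.17) and Cpt2 (-0.55 ± 0.14).

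Pparg had 8.04 and 8.23 in the T2 animals, against 9.54 and 9.47 in the others, without overlap. The difference of -1.37 ± 0.69 was not called (adjusted p = 0.379), but it was with the compared groups alone (adjusted p = 0.00242), without P28 and Pl_III (0.00956) and with the replicate block (0.00114). The block pairs none of these 4 animals and changed only the SE (0.18, against 0.69). Acaa2 was called under the same settings and with a random block for the animal (adjusted p = 0.0143, 0.0144, 0.0015 and 0.024), but not with all samples in 1 fit without a block (-0.95, adjusted p = 0.124). Ppargc1a had 5.82 and 5.31 in the T2 animals, against 4.86 and 4.38, and was called higher only without P28 and Pl_III (0.95, adjusted p = 0.045) and with that random block (adjusted p = 0.0326). Without P28 and Pl_III, 3 members were higher and 5 lower, with Cpt2 no longer called (adjusted p = 0.0706). Among related genes, the pantetheinase Vnn1, a PPARα target, stood at 7.76 and 7.91 in the T2 animals, against 11.31 and 11.22 (-3.43 ± 0.60, adjusted p = 0.00458). Leaving out single animals gave 1 member higher and 2 lower. The 12 enterocyte markers averaged 5.37 and 5.48 in the T2 animals, against 5.08 and 4.99, with 3 called higher and 1 lower. The pairs may differ in more than the title term, which cannot be told apart here. Adenoma without the T2 animals was still lower than monocultured epithelium in 29 members, and so was adenoma without the other pair.

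**Figure D5:**
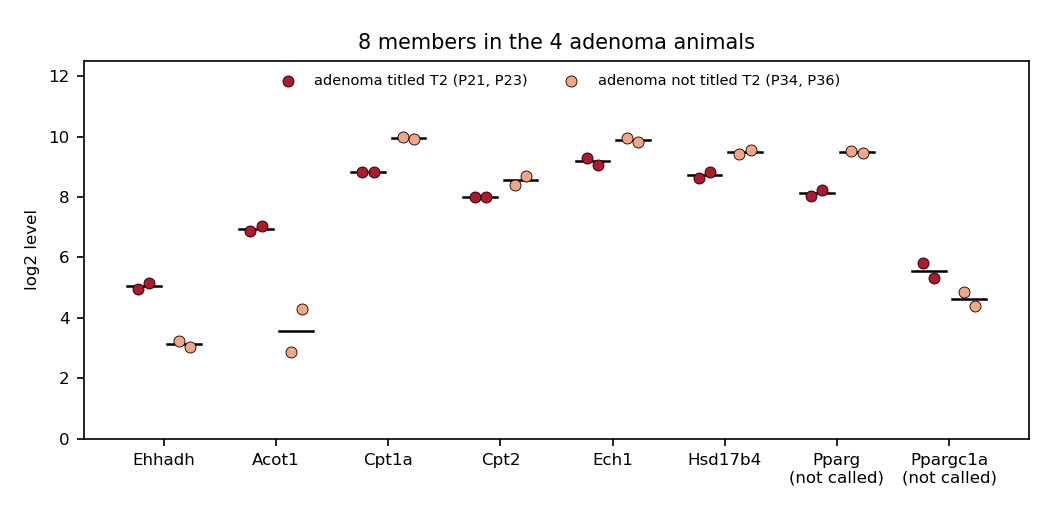
Log2 level of 8 members in the adenoma animals titled T2 (P21 and P23, left of each pair) and not titled T2 (P34 and P36, right), with the mean as a bar. Ehhadh and Acot1 are higher in the T2 animals and Cpt1a, Cpt2, Ech1 and Hsd17b4 lower, while Pparg and Ppargc1a were not called with all samples in the fit.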

How the data were processed

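Arrays of 1 colour were hybridised with amplified, biotin-labelled RNA (150 ng, per the labels' protocols). The deposited values are the authors' log2 probe set levels from RMA, a tool that the submitters' processing notes name with no version. Array library and build were not used here. RMA makes the distributions of arrays alike, so a shift of most transcripts would be hidden. The array number limits the precision.

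Of 41345 probe sets, 23521 named 1 gene, 1814 several and 16010 none here. Genes were kept where the highest group mean exceeded the 30th percentile of probe set means. Second arrays of P21 and P34 were averaged (SD of their difference over the members 0.21 and 0.23). A mean per group with 1 shared spread was fitted to 14 samples of 9 animals with limma 3.58.1 in R 4.3.3. Tests were 2-sided, with Benjamini-Hochberg adjustment over 18095 genes. The T2 comparison used 6 groups. The fit was tested on simulated data. Samples are separate animals per the titles, but the unexplained n in the adenoma source names leaves this open for adenoma. The third myofibroblast monoculture carries different animals in its labels and its title was followed.

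Cultures of an animal are paired per the labels: deviations correlated at 0.33 in epithelium and 0.62, 0.51 and 0.79 in myofibroblasts. The animal as a block was an alternative, beside filters, compared groups only, cyclic loess, a trended robust prior, the mean of probe sets, a 2-fold minimum, single arrays, a random block and left-out samples. Leaving out adenoma pairs or Pl_III was added after seeing the data. All members are named, and of each related list up to 3 genes with the smallest p among those called. Others are named where a count turns on them, and Vnn1 also for its levels in adenoma. Members and lists were chosen with earlier results of these data known.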

Additional observations from a re-analysis of the deposited data

How the results depend on the processing

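No called member changed sign under any alternative run. With the members' calls in co-cultured against monocultured epithelium at 4 lower, the fit on the compared groups alone gave 0 (3659 genes and 18 members at an unadjusted p under 0.05), a 2-fold minimum gave 2, a random block for the animal over all arrays gave 16, leaving out P28 and Pl_III gave 0, and leaving out single cultures gave 0 to 1. The replicate block gave 6 there and moved the share of all genes called to 7.57%, against 4.03% without it; the random block moved it to 15.6%. For adenoma against monocultured epithelium, 1 member (Acsl4) was called higher, against 0, with the 50th percentile filter, the compared groups alone, the trended robust prior, the random block, the replicate block, and without P28 and Pl_III; 27 to 31 were lower when single samples were left out. Against co-cultured epithelium, 1 was higher with the compared groups alone, the random block, the replicate block, and without P28 and Pl_III, and the 2-fold minimum left 19 lower. In the difference between responses, 1 member was called lower with the trended robust prior, 10 with the random block and 1 with the replicate block. Between adenoma pairs, 1 was higher without the filter and with the trended robust prior, 1 was lower with the 2-fold minimum, and leaving out single animals gave 1 higher and 2 lower. The replicate block changed no other call than those given here and in the text. The cause of these shifts was not tested, except that the 2-fold minimum and left-out samples are stricter or smaller by construction.

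Limits: epithelium has 2 animals, 1 of which goes against its sex label, and a sample left alone in its group was taken to vary like the others. Random-block fits treat the cultures of an animal as correlated alike in all genes. Myofibroblast members changed sign without being called in 52 of 648 values, and Hadhb and Pdk4 were read near or below the array medians. The same held for Ppara and Acaa1b in adenoma and myofibroblasts, Ppargc1a in myofibroblasts, and Fabp4 in adenoma and epithelium. It also held for Ehhadh in P34 and P36, for Acot1 in P34 and Pl_III, for Angptl4 in adenoma and for Pparg in Pl_I and Pl_II.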
